A study of Mus musculus with 24 samples.

Results

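Mitochondrial ribosomal protein genes were examined in skeletal muscle of mice as all array features whose gene name is Mrpl or Mrps followed by a number. The rule found 119 probes for 77 genes, 48 of them Mrpl (large subunit, by name) and 29 Mrps (small subunit, by name), among 56605 non-control probes. After a filter on dim probes 109 member probes remained, and all 77 genes were among the 19937 gene names tested. Each of the 77 genes was well above background on 24 of 24 arrays, so none entered through one group alone.

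The study compared 3 groups of 8 mice: STD_Cont, fed a low fat control diet and of control lineage; HFD_Cont, fed a high fat diet and of control lineage; and HFD_O3, fed a high fat diet and of omega-3 lineage. The comparison of HFD_Cont with STD_Cont is one of diet within the control lineage, that of HFD_O3 with HFD_Cont one of lineage under the high fat diet, and HFD_O3 with STD_Cont differs in both. The sources used here do not give the strain, sex, age, the muscle taken, the duration of feeding or what defines the omega-3 lineage. RNA of each sample was hybridised to its own one-colour Agilent array, on 3 slides that each held all 3 groups. All 12 skeletal muscle markers examined, such as creatine kinase Ckm and skeletal actin Acta1, were well above background on every array, and so were 11 of 12 white adipocyte markers. The array means of the adipocyte list, centred by gene, spanned -1.35 to 1.28 in STD_Cont, -1.17 to 2.13 in HFD_Cont and -1.21 to 1.58 in HFD_O3 on the log2 scale. Those of the list of slow-fibre markers lay between -0.70 and 1.49 on 23 arrays and at -3.91 on HFD_Cont array 4. In whole muscle, a change in the share of a cell type and a change in RNA per cell cannot be told apart.

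Mitochondria keep ribosomes of their own, which translate the few proteins encoded in mitochondrial DNA, all of them core parts of the respiratory chain and ATP synthase. The ribosomal RNAs come from mitochondrial DNA, whereas every protein of these ribosomes is encoded in the nucleus, made in the cytosol and imported. Many of the proteins have bacterial relatives, and others are found in mitochondria only. In muscle, a tissue with a high demand for oxidative phosphorylation, nuclear genes of this kind are known as targets of the transcription factors NRF1, GABPA (an ETS factor) and YY1.

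The genes lay on 17 chromosomes, with 10 on chromosome 11. Of their sequence only the window around the start was examined, where matches of 3 motifs were more frequent than among coding genes. RefSeq windows on GRCm38.p6, from 250 bases before to 50 after the start, were matched by symbol for 68 of the 77 genes. The ETS core CCGGAA, searched on both strands like every motif here, was present in 39 of the 68 genes (57.4%), against 20.9% of 17491 protein-coding genes. The NRF1 motif GCGCANGC was present in 22 (32.4%, against 14.8%) and the YY1 motif AAGATGGC in 12 (17.6%, against 3.57%). At least 1 of these 3 motifs occurred in 53 genes (77.9%, against 32.7%) and all 3 in 1 gene. Other common promoter elements were at a similar or lower share: GGGCGG was found in 34 of 68 members and 8610 of 17491 coding genes (52.7% against 46.2% of their windows, of which a gene can have several), CCAAT in 39.7% against 42.3%, CACGTG in 7.35% against 8.91% and TATAAA in 7.35% against 14.8%. None of the 7 motifs contains another, though matches can share bases. A match describes letters in this window and is not a measured binding site.

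**Figure D1:**
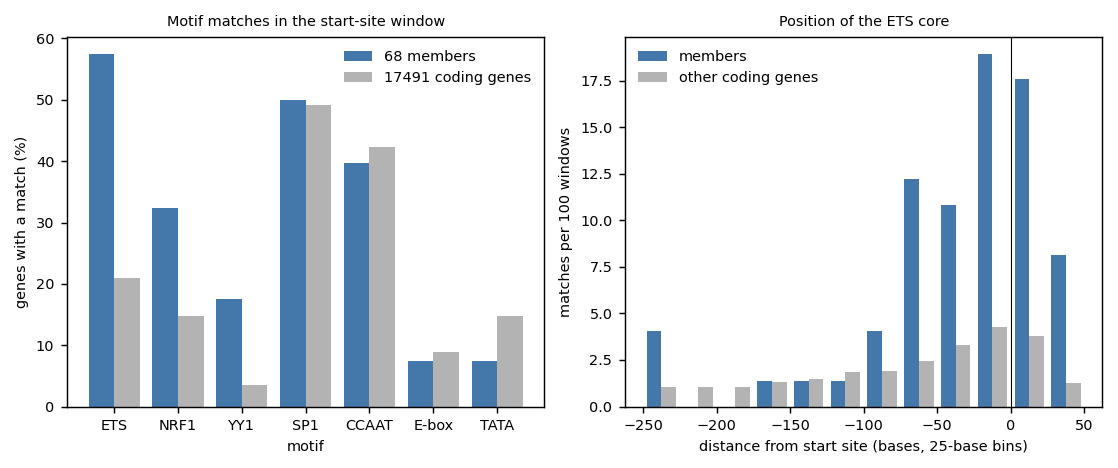
Left, percentage of genes whose promoter window holds each motif, for 68 members and 17491 protein-coding genes. Right, matches of the ETS core per 100 windows by distance from the start in bases. The ETS core is found in 57.4% of members against 20.9% of coding genes, and 41 of its 59 matches in members lie within 50 bases of the start.

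The upstream sequences below, cut at the next gene where one is nearer than 100 bases, show the range of these promoters. The first pair carries the ETS core and the second pair the NRF1 motif. The next 3, of genes whose levels are described below like those of Mrps22 and Mrpl32, hold none of the 3 motifs in this stretch. The last is the whole space between Mrps11 and Mrpl46, which start in opposite directions from it. They are written 5′ to 3′ on the strand of the gene, and capitals mark matches of CCGGAA, GCGCANGC or AAGATGGC on either strand.
Mrps22, chr9:98601680-98601779, reverse strand: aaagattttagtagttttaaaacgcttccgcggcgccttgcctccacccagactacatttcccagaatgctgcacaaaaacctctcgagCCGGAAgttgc
Mrpl51, chr6:125192101-125192199, forward strand: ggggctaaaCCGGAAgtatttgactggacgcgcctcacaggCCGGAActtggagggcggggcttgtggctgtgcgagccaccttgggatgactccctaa
Mrpl32, chr13:14613038-14613137, reverse strand: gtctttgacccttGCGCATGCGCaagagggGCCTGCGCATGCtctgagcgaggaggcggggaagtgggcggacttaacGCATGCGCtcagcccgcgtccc
Mrpl17, chr7:105811088-105811187, reverse strand: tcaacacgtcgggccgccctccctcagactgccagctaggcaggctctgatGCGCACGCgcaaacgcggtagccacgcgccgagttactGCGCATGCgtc
Mrpl47, chr3:32736756-32736855, reverse strand: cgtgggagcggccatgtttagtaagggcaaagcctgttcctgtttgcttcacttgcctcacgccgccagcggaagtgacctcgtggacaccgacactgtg
Mrpl55, chr11:59202432-59202485, forward strand: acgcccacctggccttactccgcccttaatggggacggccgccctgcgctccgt
Mrpl20, chr4:155802778-155802877, forward strand: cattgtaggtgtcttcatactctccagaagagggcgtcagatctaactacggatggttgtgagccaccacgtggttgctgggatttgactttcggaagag
Mrps11, chr7:78783090-78783130, forward strand: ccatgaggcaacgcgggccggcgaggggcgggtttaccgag
In Mrps22 the core lies next to the start, whereas Mrpl51 carries it at 2 places. Within 50 bases of the start lay 69.5% of the ETS matches in members, against 50.8% of those in other coding genes.

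The genes also often sit back to back with a neighbour. Of the 68 members, 24 (35.3%) had the start of another protein-coding gene on the opposite strand within 1000 bases upstream, against 8.48% of the 17491 coding genes. Some partners have a mitochondrial role. Examples are Twnk (the mitochondrial DNA helicase, opposite Mrpl43), Sars2 (the mitochondrial seryl-tRNA synthetase, opposite Mrps12) and Ndufb5 (a complex I subunit, opposite Mrpl47). These were picked for that role, and the partners also include Ighmbp2, Zfp189, Hira, Klc4 and Tcp1. Whether mitochondrial genes are frequent among the partners was not tested.

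Expression of these genes did not pass the test in any comparison. By limma with Benjamini-Hochberg adjustment over all names, 0 of 77 were called at 0.05 in HFD_Cont against STD_Cont, where 2.91% of all 19937 names (581) were called. In HFD_O3 against HFD_Cont the call was 0 of 77 beside 0.0% of all names, and in HFD_O3 against STD_Cont it was 0 of 77 beside 0.597%. At an unadjusted limma p under 0.05, 7 members stood out in HFD_Cont against STD_Cont (9.09%, with 16.6% of all names), 2 with a positive and 5 with a negative difference. For HFD_O3 against HFD_Cont the count was 2 (2.6%, with 7.08%) and for HFD_O3 against STD_Cont 4 (5.19%, with 11.2%), all of them negative. The shares of members lay below the background share in each comparison. No member's range over the 8 arrays of one group was separate from that of another group. The same was not counted over all names, so no background share stands beside it.

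The differences were small and closely bounded. Here and below, a level is the log2 of the processed spot intensity minus the 75th percentile of that array, and a difference is a difference of group means on that log2 scale. Differences between HFD_Cont and STD_Cont ran from -0.21 to 0.11 over the 77 genes with a median of 0.0047, beside a median of 0.0023 over all names. The 95% confidence interval lay within 0.322 of 0 (25% up or 20% down) for 75 genes (97.4%), against 56.2% of all names, and within 0.585 (1.5-fold) for 77, against 84.9%. For HFD_O3 against HFD_Cont the range was -0.17 to 0.066 with a median of -0.031 (all names -0.014), and 76 genes had an interval within 0.322. For HFD_O3 against STD_Cont it was -0.20 to 0.077 with a median of -0.036 (all names -0.015), and 75 genes had such an interval. The intervals that reached farther were those of Mrpl50 and Mrps2.

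**Figure D2:**
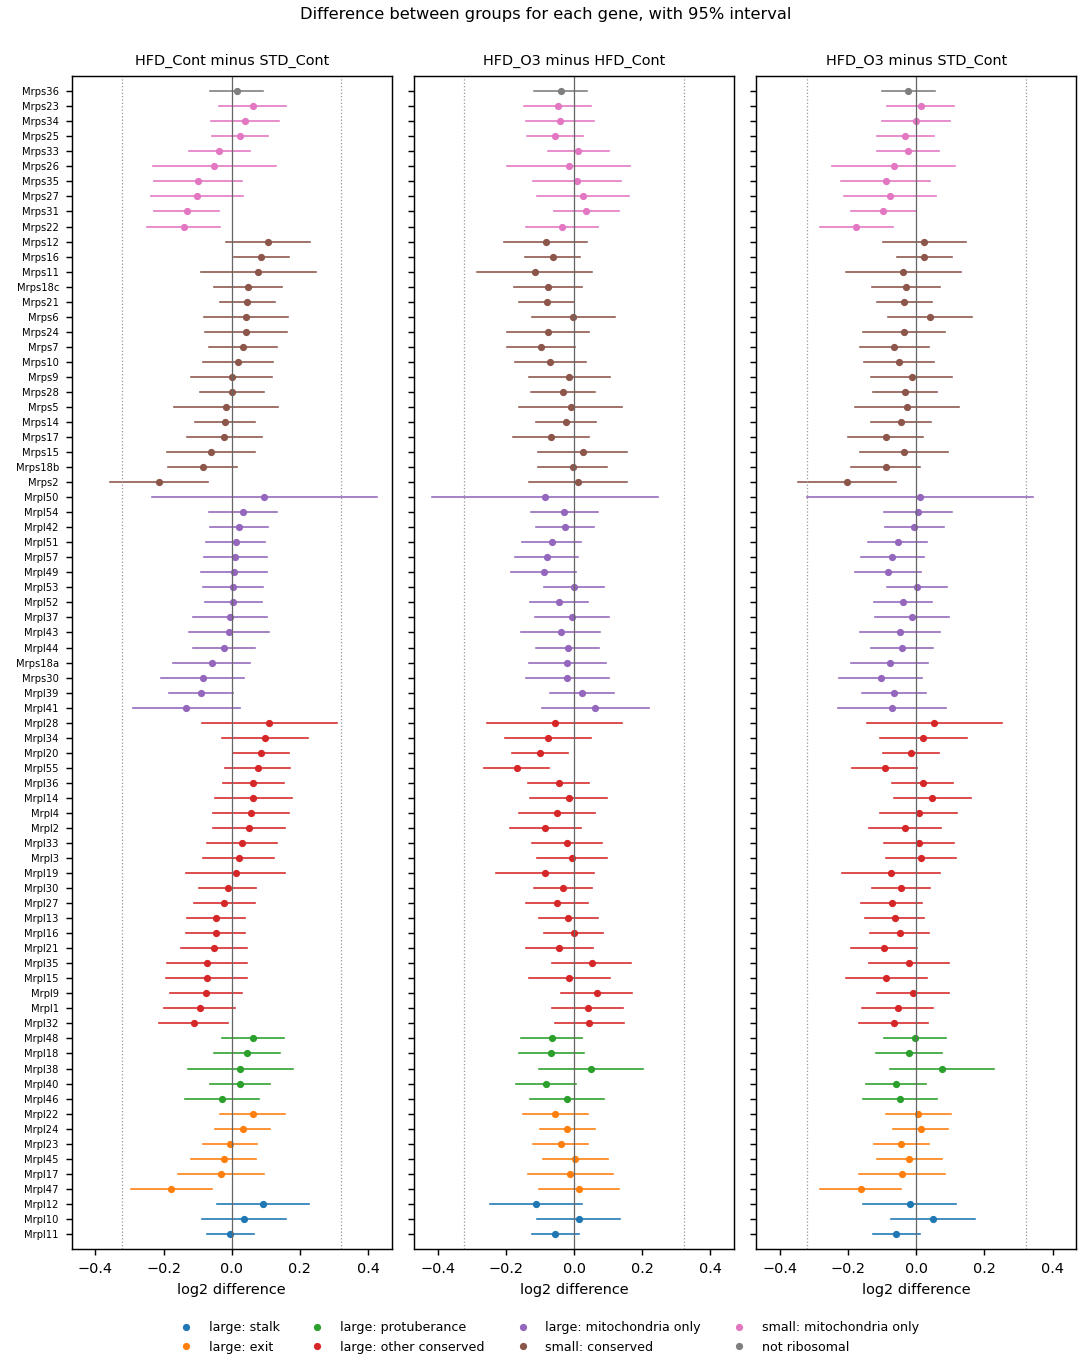
Difference of group means (log2) for each of the 77 genes in the 3 comparisons, ordered by role in the ribosome, with 95% confidence intervals and dotted lines at -0.322 and 0.322. The differences lie between -0.21 and 0.11, and no gene passes an adjusted p of 0.05.

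The narrow intervals came with a low spread between arrays. The residual SD within groups had a median of 0.0894 (log2) over the members, from 0.0454 in Mrpl11 to 0.333 in Mrpl50. The median over all names was 0.184, above 75 of the 77 members. Among the 10457 names whose mean level lay between the lowest and the highest member, it was 0.138, still above 70 members.

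The split of members above and below 0 depended on the scaling. The median for HFD_Cont against STD_Cont turned from 0.0047 to -0.0054 with normexp background correction, and those for HFD_O3 stayed below 0 under all 5 other normalizations, at -0.038 to -0.0063 against HFD_Cont and -0.057 to -0.0026 against STD_Cont. On slide 2 alone both turned positive, to 0.0027 with 39 of 77 members above 0 and to 0.0091 with 41 of 77. With 75th percentile scaling 41 of 77 members lay above 0 in HFD_Cont against STD_Cont, and from 36 (normexp background correction) to 47 (the deposited values) under the other normalizations. For HFD_O3 against HFD_Cont the count was 16, and 15 (normexp) to 36 (median scaling) elsewhere. For HFD_O3 against STD_Cont it was 19, and 8 (normexp) to 35 (the deposited values) elsewhere. All names lay above 0 in 10121, 8814 and 8842 of 19937 cases in these 3 comparisons.

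The member with the widest negative difference between the diet groups was Mrps2, a conserved protein of the small subunit. Its probe lies at chr2:28326609-28326668 (mm9). Its level was 2.81 at the lowest, 2.99 at the median and 3.09 at the highest in STD_Cont. In HFD_Cont it was 2.60, 2.75 and 2.85, and in HFD_O3 2.44, 2.74 and 3.15. All 8 HFD_Cont arrays lay below the STD_Cont median, though the ranges overlapped, and HFD_O3 held both the lowest array (1) and the highest (7). The difference of HFD_Cont from STD_Cont was -0.21 (SE 0.070; limma, adjusted p = 0.0954), and within slides 1, 2 and 3 it was -0.17, -0.21 and -0.25. HFD_O3 differed from STD_Cont by -0.20 (limma, adjusted p = 0.218), and from HFD_Cont by 0.012. Without HFD_O3 array 7 the difference from STD_Cont was -0.26 with a limma adjusted p of 0.0242, the one setting that brought this comparison past the threshold. Over 44 alternatives this difference of HFD_O3 from STD_Cont ran from -0.28 to -0.031. A second Mrps2 probe gave -0.13 for HFD_Cont against STD_Cont (SE 0.074).

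Mrps22, a small subunit protein found in mitochondria only, behaved alike in both of its probes. Its level was 2.44, 2.54 and 2.79 (lowest, median and highest array) in STD_Cont, 2.30, 2.41 and 2.56 in HFD_Cont, and 2.24, 2.39 and 2.49 in HFD_O3. Of the HFD_O3 arrays all 8, and of the HFD_Cont arrays 7, lay below the STD_Cont median, with overlapping ranges. The difference from STD_Cont was -0.14 in HFD_Cont (SE 0.052; limma, adjusted p = 0.145) and -0.18 in HFD_O3 (limma, adjusted p = 0.128). The second probe gave -0.15 and -0.16. These 2 comparisons share the STD_Cont arrays.

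Mrps31, another mitochondria-only protein of the small subunit, ranged over 4.15, 4.26 and 4.30 in STD_Cont, 4.01, 4.11 and 4.16 in HFD_Cont, and 3.91, 4.14 and 4.28 in HFD_O3. The HFD_Cont and STD_Cont ranges met at the end, with 8 of 8 HFD_Cont arrays below the STD_Cont median. The difference was -0.13 (SE 0.046; limma, adjusted p = 0.119) for HFD_Cont and -0.096 (limma, adjusted p = 0.435) for HFD_O3, each against STD_Cont. A second probe, which answers to another transcript record, gave 0.11 for HFD_Cont against STD_Cont with an SE of 0.139, so the probes differ in sign but the second is imprecise.

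Mrpl47, at the exit of the tunnel through which the new protein leaves the large subunit, had levels of 3.35, 3.50 and 3.75 in STD_Cont, 3.16, 3.32 and 3.49 in HFD_Cont, and 3.25, 3.31 and 3.49 in HFD_O3. All 8 arrays of either high fat group lay below the STD_Cont median, and the ranges overlapped. The difference was -0.18 (SE 0.057; limma, adjusted p = 0.0929) for HFD_Cont and -0.16 (limma, adjusted p = 0.232) for HFD_O3. Within slides the HFD_Cont difference was uneven, at -0.010, -0.20 and -0.32. A second Mrpl47 probe gave -0.24 (SE 0.118).

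Between the lineages under the high fat diet, Mrpl55 and Mrpl20, both of the large subunit, had the smallest p-values. Mrpl55 was at 6.39, 6.53 and 6.70 in STD_Cont, 6.51, 6.61 and 6.73 in HFD_Cont, and 6.35, 6.46 and 6.56 in HFD_O3. All 8 HFD_O3 arrays lay below the HFD_Cont median, and the difference was -0.17 (SE 0.047; limma, adjusted p = 0.458). It was -0.24, -0.079 and -0.20 within the 3 slides, and -0.16 with the adipocyte level as a covariate. Mrpl20 was at 5.5, 5.60 and 5.72 in STD_Cont, 5.56, 5.69 and 5.79 in HFD_Cont, and 5.55, 5.59 and 5.63 in HFD_O3. HFD_O3 lay within a narrow band there, with 8 of 8 arrays below the HFD_Cont median and a difference of -0.10 (limma, adjusted p = 0.648), while HFD_Cont differed from STD_Cont by 0.086 (limma, adjusted p = 0.272). For both genes HFD_Cont was the group with the highest median.

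**Figure D3:**
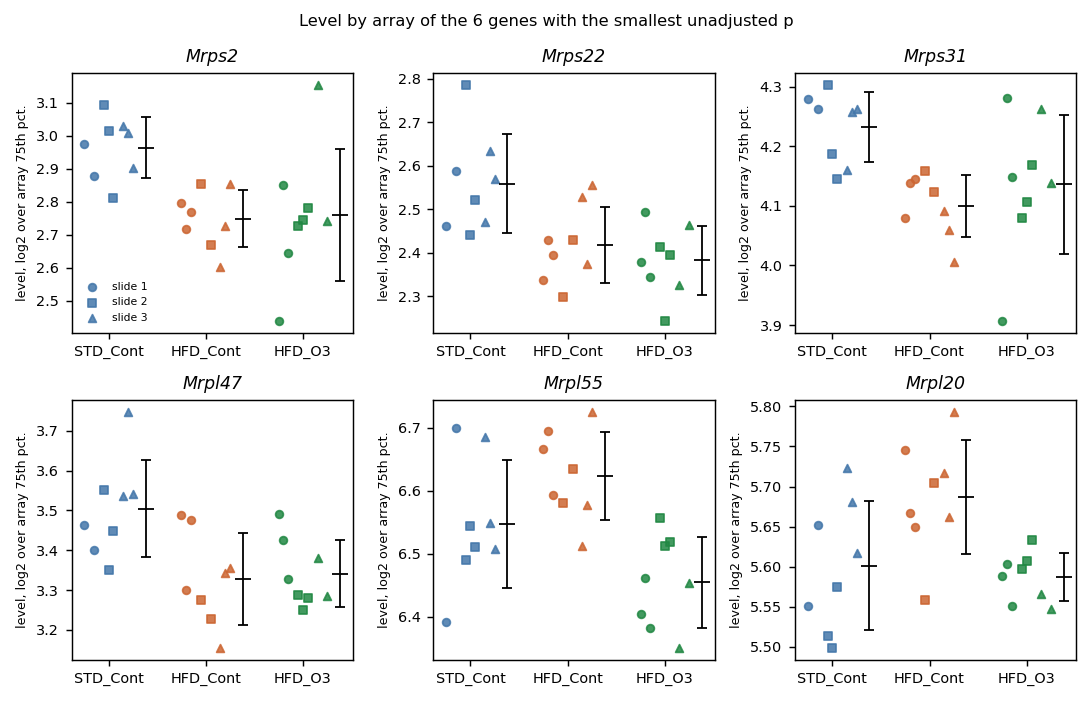
Level (log2 over the 75th percentile of the array) on each of 24 arrays for the 6 genes with the smallest unadjusted p, by group. In Mrps2, Mrps22, Mrps31 and Mrpl47 most high fat arrays lie below the STD_Cont median, and in Mrpl55 and Mrpl20 all HFD_O3 arrays lie below the HFD_Cont median; every pair of groups overlaps.

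By place in the ribosome the diet difference had no common direction. In the stalk that recruits translation factors (Mrpl10, Mrpl11, Mrpl12), the median difference of HFD_Cont from STD_Cont was 0.036. Mrpl12, which is also reported to bind the mitochondrial RNA polymerase, was at 5.38 (median) in STD_Cont, 5.43 in HFD_Cont and 5.29 in HFD_O3, with differences of 0.092 (limma, adjusted p = 0.539) for diet and -0.11 (limma, adjusted p = 0.746) for lineage. Mrpl11 had medians of 5.73, 5.72 and 5.68, and all 8 HFD_O3 arrays lay below the medians of both other groups, with a difference of -0.054 from HFD_Cont (limma, adjusted p = 0.758). Around the tunnel exit (6 genes) the median was -0.014. There Mrpl45, which tethers the ribosome to the inner membrane, differed by -0.024 (95% interval -0.12 to 0.072) and Mrpl22 by 0.061.

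The central protuberance (5 genes) had a median of 0.026, from -0.028 in Mrpl46 to 0.063 in Mrpl48. The other 21 conserved genes of the large subunit had a median of 0.011. Their extremes were Mrpl28 at 0.11 (SE 0.096) and Mrpl32, whose protein is matured by the mitochondrial m-AAA protease, at -0.11 (SE 0.049; limma, adjusted p = 0.245). In Mrpl32 all 8 HFD_Cont arrays lay below the STD_Cont median, with medians of 3.62 and 3.52. Among 15 large subunit proteins found in mitochondria only the median was 0.0047, with Mrpl41 at -0.13 (SE 0.076) and Mrpl50 at 0.095 (SE 0.16). Within slides 1, 2 and 3 the Mrpl50 difference was -0.056, -0.044 and 0.34. Slide 3 holds HFD_Cont array 8, where Mrpl50 was at 1.732, beside 0.05469 to 0.3396 on the other HFD_Cont arrays. Mrps18a and Mrps30 carry small subunit names but sit in the large subunit, and differed by -0.059 and -0.085.

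In the small subunit, 17 conserved genes had a median of 0.018. Mrps12, in the decoding centre, differed by 0.11 (SE 0.059; limma, adjusted p = 0.388) and Mrps16 by 0.086 (SE 0.039; limma, adjusted p = 0.257), each with 7 of 8 HFD_Cont arrays above the STD_Cont median. The paralogues Mrps18b and Mrps18c differed by -0.086 and 0.048. For Mrps18b 8 of 8 HFD_Cont arrays lay below the STD_Cont median and for Mrps18c 8 of 8 lay above it, and neither passed the test (limma, adjusted p = 0.403 and 0.703). The 9 mitochondria-only genes of the small subunit had the lowest median of the roles, -0.052. They include Mrps22 and Mrps31, while Mrps23 lay at 0.061. Mrps36, now assigned to the 2-oxoglutarate dehydrogenase complex and not to the ribosome, differed by 0.014 (95% interval -0.064 to 0.092).

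For HFD_O3 against HFD_Cont every role had a median below 0, from -0.015 at the tunnel exit and in the mitochondria-only small subunit genes to -0.066 in the protuberance. The median over all names was -0.014, and the size of the shift depended on the scaling as given above. Beside Mrpl55 and Mrpl20, the smallest p-values among negative differences were those of Mrps21 (-0.080; limma, adjusted p = 0.699), Mrps7 (-0.097; limma, adjusted p = 0.705) and Mrpl40 (-0.083; limma, adjusted p = 0.713). In Mrps21 and Mrps7 all 8 HFD_O3 arrays lay below the HFD_Cont median. The positive differences with the smallest p-values were Mrpl9 at 0.066, Mrpl41 at 0.063, Mrpl35 at 0.052, Mrpl32 at 0.045 and Mrps31 at 0.036, all with an adjusted limma p above 0.8.

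For HFD_O3 against STD_Cont, Mrps22, Mrps2, Mrpl47 and Mrps31 were followed by Mrpl21 at -0.094 (SE 0.047; limma, adjusted p = 0.462). On the positive side Mrpl38 differed by 0.077, Mrpl10 by 0.050, Mrpl14 by 0.047, Mrps6 by 0.040 and Mrps16 by 0.024, with adjusted limma p-values above 0.7.

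Different probes of a gene mostly gave the same sign. Of 26 genes with several kept probes, all probes of a gene had one sign in 20 for HFD_Cont against STD_Cont, in 21 for HFD_O3 against HFD_Cont and in 19 for HFD_O3 against STD_Cont. The median range between probes of a gene was 0.046, 0.035 and 0.039. In no gene were probes opposite with an unadjusted p under 0.05 on each. With every probe tested on its own, 0 of 109 member probes were called in any comparison, beside 2.67% of all 29245 probes for HFD_Cont against STD_Cont, 0.0% for HFD_O3 against HFD_Cont and 0.551% for HFD_O3 against STD_Cont. The Mrpl13 probe that stands for the gene gave -0.046 for HFD_Cont against STD_Cont, whereas a second one, for another transcript record, gave -0.27 (SE 0.084; limma, adjusted p = 0.0831). Another Mrpl48 probe gave -0.29 (SE 0.154) beside 0.063 and 0.069. These last genes were singled out after their values were seen.

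Averaged over the 77 genes after centring each gene, the level of an array was 0.014 ± 0.060 (log2, SD, n = 8) in STD_Cont, 0.0089 ± 0.033 in HFD_Cont and -0.023 ± 0.057 in HFD_O3. The arrays ran from -0.062 to 0.083, from -0.030 to 0.076 and from -0.13 to 0.033 in these groups, so all overlapped. With 75th percentile scaling the lowest arrays were HFD_O3 array 1 at -0.13, on which 18 of 77 genes lay above their own mean, HFD_O3 array 8 at -0.078, with 5 of 77, and STD_Cont array 4 at -0.062. After quantile normalization the order changed, to STD_Cont array 4 at -0.060, HFD_O3 array 8 at -0.051 and HFD_O3 array 1 at -0.038. HFD_Cont array 4, the array of low slow-fibre level, had a member mean of 0.0050.

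**Figure D4:**
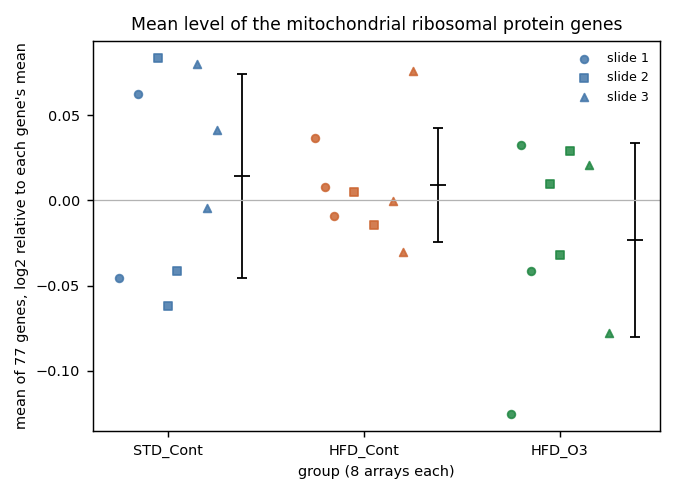
Mean of the 77 centred genes on each of 24 arrays (log2) by group, under 75th percentile scaling. The groups overlap, with the lowest array at -0.13 in HFD_O3.

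The genes varied together from array to array within groups. After group means were removed, the median Pearson correlation over 24 arrays was 0.267 across the 2926 pairs of members, 80.9% of which lay above 0. The mean over pairs was 0.250, beside 0.0175 over pairs of all names, which were not matched to the members in level or spread. Pairs within the large subunit (by name) averaged 0.27, pairs within the small subunit 0.22 and pairs between them 0.243, so the subunits did not form separate blocks. The 3 stalk genes averaged 0.408 and the 6 tunnel exit genes 0.0843. Each array enters every pair, and the size of the correlation depended on the scaling: the median pair stood at 0.135 after quantile normalization, 0.128 after cyclic loess, 0.118 in the deposited values, 0.553 with normexp background correction and 0.657 with median scaling. The mean over pairs of all names moved as well, to 0.181 with median scaling. Within slides 1, 2 and 3 alone the median pair of members stood at 0.360, 0.449 and 0.265. Respiratory chain subunits, measured the same way, had a median of 0.398, translation factors 0.262, mitochondrial tRNA synthetases 0.232 and assembly factors 0.158. RNA quality was not measured here, and the part that array-wide effects have in these correlations was not tested.

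**Figure D5:**
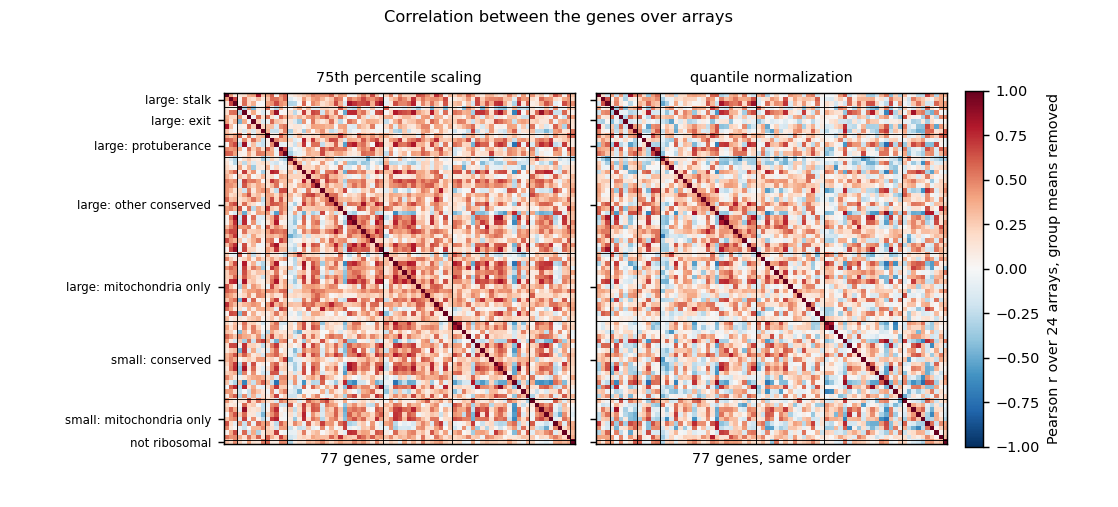
Pearson correlation over 24 arrays, group means removed, between all pairs of the 77 genes ordered by role, with 75th percentile scaling (left) and quantile normalization (right). Most pairs are positive in both, with medians of 0.267 and 0.135, and lines divide the roles.

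Of the 77 genes, 74 correlated positively with the mean of the other members, and 71 did so after quantile normalization, with medians of 0.534 and 0.360. With 75th percentile scaling the highest values were those of Mrpl21, a conserved large subunit protein (r = 0.802, Spearman's rho = 0.81, and r = 0.799 without the 2 most distant arrays), Mrpl36 (r = 0.783, rho = 0.737, r = 0.684) and Mrpl37 (r = 0.773, rho = 0.784, r = 0.731). The order depended on the scaling: after quantile normalization Mrpl36 was at 0.744, Mrpl37 at 0.682 and Mrpl21 at 0.605. Within the slides Mrpl21 had r of 0.939, 0.768 and 0.622. The genes with the lowest values under the same scaling were Mrps18c (r = -0.188, rho = 0.068), Mrpl1 (r = -0.068, rho = -0.012) and Mrpl33 (r = -0.033, rho = -0.018). Without the 2 most distant arrays their r turned positive, to 0.028, 0.048 and 0.062. Of the genes described above, Mrps2 had r = 0.456, Mrps22 0.412, Mrps31 0.388, Mrpl47 0.077 and Mrpl32 0.042. After quantile normalization these were 0.210, 0.298, 0.068, 0.292 and -0.313, so their order was not stable either. With 75th percentile scaling, members with the ETS core had a median r of 0.557 and those without it 0.473. This difference was not tested.

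Among 23 back-to-back pairs 21 had both genes measured, and 17 of these had a positive correlation over the 24 arrays, with a median of 0.435. After quantile normalization 16 of the 21 were positive with a median of 0.258, and after cyclic loess 15 with a median of 0.222. In 6 pairs the permutation p, adjusted by Benjamini-Hochberg over the 21 pairs, was under 0.05. Mrps27, a small subunit protein, and Ptcd2, a mitochondrial RNA-processing protein, start 108 bases apart and had r = 0.786 (permutation test, adjusted p = 0.0066; rho = 0.59), 0.797, 0.805 and 0.773 within the slides and 0.534 without the 2 most distant arrays. Mrpl37 and Cyb5rl, 128 bases apart, had r = 0.771 (permutation test, adjusted p = 0.002; rho = 0.703), with 0.957, 0.315 and 0.831 within the slides and 0.645 without 2 arrays. Mrpl43 and Twnk, 116 bases apart, had r = 0.716 (permutation test, adjusted p = 0.002; rho = 0.597), with 0.729, 0.518 and 0.910 within the slides and 0.543 without 2 arrays. The other pairs were Mrpl2 with Klc4 (r = 0.636, rho = 0.515), Mrpl14 with Tmem63b (r = 0.567, rho = 0.56) and Mrpl47 with Ndufb5 (r = 0.517, rho = 0.316). By rank, Mrpl2 with Klc4 (permutation test, adjusted p = 0.066) and Mrpl47 with Ndufb5 (permutation test, adjusted p = 0.26) were not under 0.05. Mrpl47 with Ndufb5 also did not hold within slide 2 (r = -0.081). Mrps11 and Mrpl46, which share the 41 bases printed above, had r = 0.147 (rho = 0.296). After quantile normalization Mrps27 with Ptcd2 had r = 0.731, Mrpl37 with Cyb5rl 0.554 and Mrpl43 with Twnk 0.563, whereas Mrpl40 with Hira went from 0.382 to -0.034. Whether these pairs go together more than members do in general was not tested.

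The genes that work with these ribosomes did not pass the test either. In 7 lists, 0 genes were called in any of the 3 comparisons by limma, where 2.91%, 0.0% and 0.597% of all names were called. The 5 mitoribosomal genes under other names had a median difference of 0.0095 for HFD_Cont against STD_Cont, including Dap3, a small subunit GTPase, at 0.054 and Chchd1 at -0.020. The median was -0.0089 over 14 translation factors, -0.031 over 23 assembly factors, -0.028 over 20 tRNA synthetase and amidotransferase genes, -0.040 over 22 genes of mitochondrial DNA expression, 0.0051 over 13 regulators and 0.024 over 79 respiratory chain subunits. At an unadjusted limma p under 0.05 in that comparison stood 0, 2, 3, 3, 3, 3 and 2 genes of these lists in the same order, where 16.6% of all names had such a p. The list medians ran from -0.032 to 0.018 for HFD_O3 against HFD_Cont and from -0.060 to 0.025 for HFD_O3 against STD_Cont.

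The nearest to the threshold was Ndufs4, a complex I subunit, with levels of 6.87, 6.98 and 7.09 in STD_Cont and 6.71, 6.83 and 7.0 in HFD_Cont. Its difference was -0.16 (SE 0.044; limma, adjusted p = 0.0528). Sirt1, a deacetylase that acts on the coactivator PGC-1α, was at 1.5, 1.68 and 1.87 in STD_Cont and 1.24, 1.47 and 1.51 in HFD_Cont, with a difference of -0.28 (SE 0.079; limma, adjusted p = 0.0537). Trmt10c, a subunit of mitochondrial RNase P, differed by -0.23 (limma, adjusted p = 0.0738) and the assembly helicase Ddx28 by -0.36 (limma, adjusted p = 0.103). The ranges of HFD_Cont and STD_Cont overlapped in all 4 genes. The widest differences among the genes named from the lists were those of the transcription factor Myc at -0.44 (SE 0.155; limma, adjusted p = 0.125) and the tryptophanyl-tRNA synthetase Wars2 at 0.43 (SE 0.168; limma, adjusted p = 0.185). Ndufs4 passed the threshold in 9 of 44 alternative analyses and Sirt1 in 12 of 44.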

How the data were processed

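Total RNA of 24 samples, 8 per group, was prepared with Trizol, and Cy3 labelling started from 200 ng, per the labels' protocols. Per the file headers, Agilent Feature Extraction 10.10.1.1 read the spots and mm9 is the build of the probe positions. The deposited intensity of each spot was background-subtracted by that software, with no normalization between arrays. The authors' deposited value table is in log2 units with its normalization unstated, and served as an alternative. After removal of flagged spots and averaging of repeat spots, log2 values were scaled to the 75th percentile of the array's non-control probes. Probes well above background on at least 6 of 8 arrays of 1 group were kept (29245), and the one with the highest mean stood for a gene. Between 52.0 and 60.7% of spots were well above background, and the number of arrays limits the precision. Groups were compared with limma 3.58.1 in R 4.3.3 (two-sided, all 24 arrays, no block). The series' design text gives 8 mice per group, so arrays of a group were taken as separate mice. Correlations used 100000 permutations. The scripts were tested on simulated data. Named were members with the 5 smallest p-values per direction and comparison, the extremes of each role, those with the 3 highest and lowest correlations, the Mrps18 paralogues, Mrpl12, Mrpl45, Mrps30 and Mrps36, and 2 genes per list. Members and lists were chosen with earlier results of these data known. The alternatives were other background corrections, normalizations, filters, probe rules, slide, row, pairing and adipocyte terms, array weights, and each array left out; those for correlations and list genes were added after seeing the data.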

Additional observations from a re-analysis of the deposited data

Results flagged for a closer look

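In 7 of 120 groups of 8 arrays tested over the named genes, 1 array stood apart from the other 7 by a gap that is large against the range of the group. For independent groups chance gives about 1 such group in 20. The groups here are not independent, as the genes correlate over arrays and 3 of the 7 fall on HFD_O3 array 1. Some genes were also named from these same values. The 7 can therefore not be judged against that share. In HFD_O3 array 1 these were Mrps18a at a level of 4.381 (the other arrays 4.614 to 4.794), Mrps30 at 3.484 (3.782 to 3.97) and Mrps18c at 4.62 (4.222 to 4.395). The first pair lay below and the last above the rest. Mrpl41 was at 5.057 in HFD_O3 array 7 (4.524 to 4.673), and Mrpl35 at 0.1979 in HFD_O3 array 2 (-0.05236 to 0.01372). Mrpl33 was at 7.215 in HFD_Cont array 4 (7.32 to 7.403). Mrpl50, which has 1 kept probe, was at 1.732 in HFD_Cont array 8 (0.05469 to 0.3396), and this value gives the gene the widest spread of all members.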

How the results depend on the processing

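The count of 0 members called higher held under all 45 alternatives in each comparison. Part of this was fixed beforehand. In HFD_O3 against HFD_Cont no alternative called more than 1 of all names. With 1 slide alone, or without the arrays of high adipocyte level, 0 of all names were called in every comparison. Such settings say nothing about the members in particular. The count of members called lower in HFD_Cont against STD_Cont rose from 0 to 2 with only the 2 groups compared and to 3 with array weights, and ran from 0 to 1 with single arrays left out (1, Mrps2, without HFD_O3 array 1 or array 7); the cause was not tested. In HFD_O3 against STD_Cont it ran from 0 to 1 (1, Mrps2, without HFD_O3 array 7), and in HFD_O3 against HFD_Cont it stayed at 0. All 13 member differences with an unadjusted limma p under 0.05 kept their direction in 44 of 44 alternatives. These leave out the fit with every probe on its own. There the second Mrps31 probe was positive, at 0.11 for HFD_Cont and 0.020 for HFD_O3, each against STD_Cont. Within the 44, the Mrps31 difference of HFD_Cont from STD_Cont shrank to -0.012 at its smallest. The median pair correlation, 0.2667, moved to 0.5527 (normexp), 0.1347 (quantile), 0.128 (cyclic loess), 0.6574 (median scaling), 0.1183 (deposited values) and 0.4494 (slide 2 alone). Mtif3, a translation initiation factor, changed sign for HFD_O3 against STD_Cont on slide 3 alone (0.1136). The replicate block changed no member call: 0 members were called, and 628 of all names against 581 without the block in HFD_Cont against STD_Cont. Arrays of the same replicate number had a median correlation of deviations of 0.0436 (-0.145 to 0.365, over 0.1 in 6 of 24 pairs). The labels do not say whether replicate numbers pair mice across groups, and this was not tested. Over all names the count in HFD_Cont against STD_Cont ran from 0 (without the arrays of high adipocyte level) to 1168 (array weights), and from 182 to 977 with single arrays left out. In HFD_O3 against STD_Cont it ran from 0 to 128, and from 68 to 343. The 0 without arrays of high adipocyte level comes from a fit on fewer arrays. With the adipocyte level as a covariate on all 24 arrays, 209 names were called higher and 206 lower in HFD_Cont against STD_Cont. In HFD_O3 against STD_Cont these were 78 and 40. What part the adipocyte level has in the counts was not tested.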
